A study of Mus musculus with 4 samples.

Results

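Gpnmb, Spp1, Trem2, Tyrobp, Cd9, Cd63, Fabp5, Lpl, Apoe and Apoc1 are 10 genes that mark macrophages and microglia of scars and of lipid-laden tissue. They were selected on their UMI counts (unique molecular identifiers, which count single transcripts) in these same matrices, with results of these data known, and all 10 of the 33696 gene features had UMIs in each of the 4 deposited matrices. Their levels are therefore given as a description. The data were single-nucleus transcriptomes of mouse brain at 21 days post-injury (dpi) after photothrombotic (PT) injury, a focal cortical lesion made by light and a circulating dye. The library labelled control came from mice labelled WT, and the library labelled Cxcl12-cKO from mice carrying a floxed Cxcl12 gene with Col1a2(creER), an inducible Cre expressed in fibroblasts. Each library pooled 1 male and 1 female mouse, and its lesional and parenchymal nuclei were tagged apart and mixed at 75% lesion before DAPI sorting. The study's methods describe controls of its knockout strains mostly as tamoxifen-treated littermates that lacked Cre or were heterozygous for the floxed allele, without saying which was used here.

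TREM2 is a surface receptor for lipids and lipoproteins that signals through the adaptor TYROBP (DAP12) in microglia and macrophages. Phagocytes that clear myelin and dying cells take up lipid, bind it in the cell, break down lipoprotein triglyceride and return cholesterol to extracellular particles that carry APOE and APOC1. Microglia in disease, in part through TREM2, and macrophages of fibrotic organs turn on overlapping sets of genes that include GPNMB, osteopontin (encoded by Spp1), LPL, FABP5 and the tetraspanins CD9 and CD63.

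The lesional matrices held 8095 and 7933 nuclei after filtering in the libraries labelled control and Cxcl12-cKO, with medians of 2962 and 2975 UMIs, and the parenchymal matrices held 2877 and 2838 nuclei with medians of 15915 and 16648. With 1 library for each genotype no difference was tested, and intervals (95%, exact Poisson for UMI counts scaled per class to CPM, which is counts per 1e6 UMIs, and exact binomial for shares and ratios) cover counting error only. They are too narrow for a gene whose UMIs lie in few nuclei. Cxcl12 itself went against the labels in lesional fibroblast-like nuclei, with 106 CPM (101 to 111) under the control label and 215 CPM (207 to 222) under the Cxcl12-cKO label, and in female nuclei (101 and 266 CPM) and male nuclei (107 and 187 CPM) alike. Which part of Cxcl12 was deleted is not stated in any source at hand, so 3′ counts cannot check the deletion. The libraries shared 47 barcodes. All 10 myeloid markers were present in lesional myeloid-like nuclei, which numbered 1808 and 2313. The 8 fibroblast markers summed to 1198 and 657 CPM there, against 4373 and 3923 CPM in fibroblast-like nuclei; their part in the differences below was not tested.

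Promoter sequences of 6 of the 10 genes were found in RefSeq (GRCm38.p6, from 250 bases before to 50 bases after a start). Those of Gpnmb, Trem2 and Spp1 are shown because the distribution of Gpnmb and Spp1 is the main result and TREM2 is the receptor of the group. Capitals mark TGANTCA, a loose form of the AP-1 motif that allows any middle base (N), read on both strands. This loose form occurs in 7.81% of 32851 promoters of this length.
Gpnmb, chr6:49036268-49036567, + strand: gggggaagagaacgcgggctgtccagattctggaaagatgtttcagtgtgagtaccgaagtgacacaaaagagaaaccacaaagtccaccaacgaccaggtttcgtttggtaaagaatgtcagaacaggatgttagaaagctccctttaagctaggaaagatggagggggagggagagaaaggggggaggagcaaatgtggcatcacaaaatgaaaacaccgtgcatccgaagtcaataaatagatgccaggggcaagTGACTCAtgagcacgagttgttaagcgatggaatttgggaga
Trem2, chr17:48346151-48346450, + strand: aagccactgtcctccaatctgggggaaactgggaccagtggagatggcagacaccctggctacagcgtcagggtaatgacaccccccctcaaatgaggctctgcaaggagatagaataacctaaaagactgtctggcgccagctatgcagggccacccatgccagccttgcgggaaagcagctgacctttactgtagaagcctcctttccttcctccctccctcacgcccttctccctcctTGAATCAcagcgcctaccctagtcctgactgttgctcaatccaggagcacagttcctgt
Spp1, chr5:104434861-104435160, + strand: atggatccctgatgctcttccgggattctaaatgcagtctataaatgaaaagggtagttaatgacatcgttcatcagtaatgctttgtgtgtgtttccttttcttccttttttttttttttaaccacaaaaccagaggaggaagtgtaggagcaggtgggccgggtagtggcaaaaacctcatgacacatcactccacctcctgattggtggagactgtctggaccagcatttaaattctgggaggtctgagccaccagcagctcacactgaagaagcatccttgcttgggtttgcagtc
The match read TGACTCA in Gpnmb, 9 bases after the start, and TGAATCA, with another middle base, in Trem2, 9 bases before it. This Spp1 window held neither TGANTCA nor the MiT/TFE motifs CATGTG and CACGTG, which occur in 14.2% and 7.15% of promoters and whose last 2 bases can overlap the first of TGANTCA. Cd9 held 1 CATGTG match on the reverse strand, 38 bases before its start, and Apoe and Cd63 held none of the 3 motifs. A match is a description of these letters and not of binding.

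The share of UMIs in myeloid-like nuclei differed widely between the 10 genes. Over the 10 genes and both libraries, the median share of a gene's lesional UMIs held by myeloid-like nuclei was 77.1%. Without the barcode filter it was 42.8%, where 1 cluster with 8 of 10 myeloid markers took another name. The classes were clustered without these genes, so the shares do not rest on them.

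**Figure D1:**
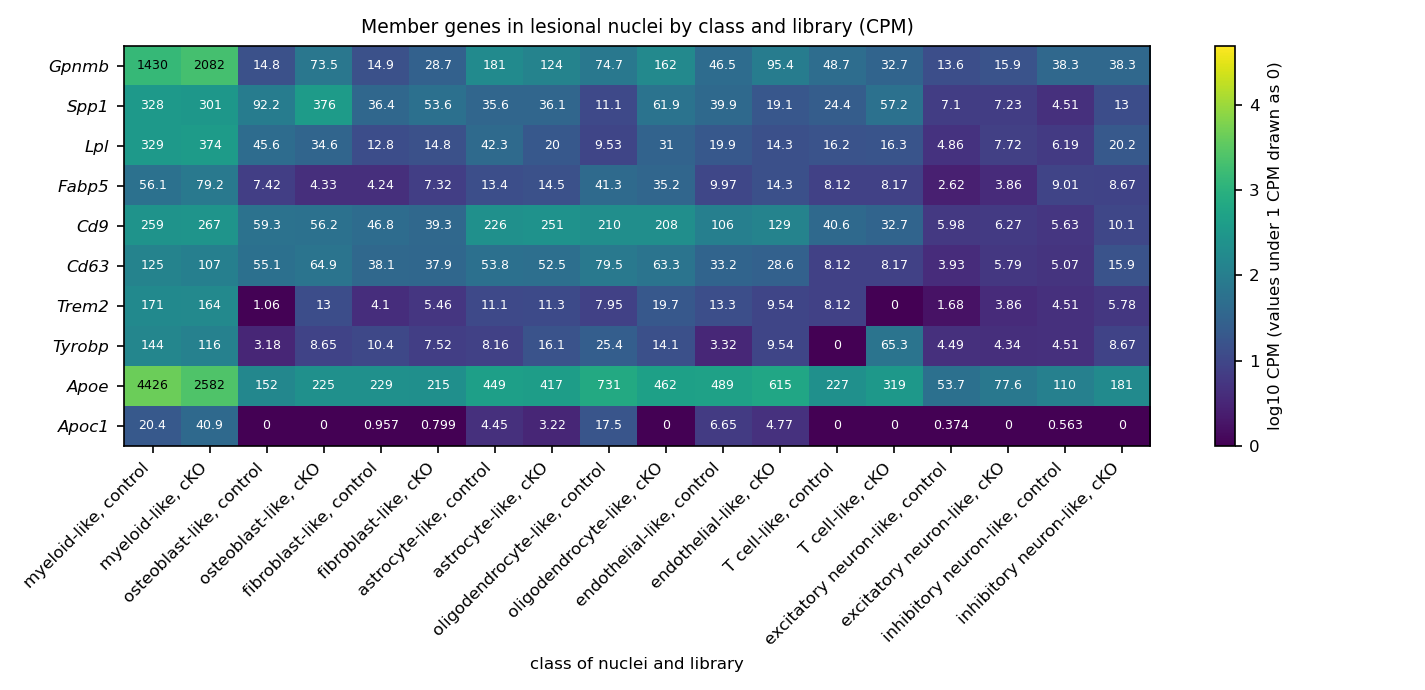
Each cell gives the CPM of 1 gene (rows) in lesional nuclei of 1 class and library (columns), coloured on a log10 scale with values under 1 CPM drawn as 0. Gpnmb and Trem2 are concentrated in the myeloid-like columns, whereas Cd9 is at 226 and 251 CPM in astrocyte-like nuclei as well.

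Gpnmb, which encodes a lysosomal and surface glycoprotein of phagocytes, had the highest myeloid-like share of the 10 genes in both libraries. Of its lesional UMIs, 87.8% and 92.8% lay in myeloid-like nuclei in the libraries labelled control and Cxcl12-cKO. For Trem2 these shares were 87.2% and 87.9%. Excitatory-neuron-like nuclei, which should lack Gpnmb, had 13.6 and 15.9 CPM in the lesion, which is 0.954% and 0.765% of the myeloid-like level, at median depths of 14387 and 13644 UMIs a nucleus. Of these 73 and 33 UMIs, 52 and 16 lay in 2 nuclei of each library. The astrocyte-like level of Gpnmb was 181 CPM (166 to 198) and 124 CPM (112 to 137), but few nuclei carried it. Of the 489 UMIs under the control label, 70.6% lay in 25 of 615 nuclei, and of the 386 under the Cxcl12-cKO label 57% lay in 17 of 643.

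Spp1, which encodes the secreted matrix protein osteopontin, was spread over more classes. Myeloid-like nuclei held 66.6% and 65.4% of its lesional UMIs, and fibroblast-like nuclei held 22.5% and 25.3%. Osteoblast-like nuclei, for which Spp1 is a known bone matrix gene, had 87 UMIs in each library, equal to 92.2 CPM (73.8 to 114) and 376 CPM (301 to 464). Few nuclei carried these levels as well, since 3 nuclei held 60.9% of the UMIs under the control label and 4 held 87.4% under the Cxcl12-cKO label. By mouse the osteoblast-like level was 40.5 and 462 CPM in females and 257 and 267 CPM in males. The fibroblast-like level was 36.4 CPM (33.4 to 39.6) and 53.6 CPM (50 to 57.4), above the 7.1 and 7.23 CPM of excitatory-neuron-like nuclei. These classes differ in depth, with medians of 3059 and 3110 against 14387 and 13644 UMIs a nucleus. By share of nuclei they were close, with a Spp1 UMI in 8.31% and 11% of fibroblast-like and 8.38% and 9.4% of excitatory-neuron-like nuclei. Free RNA was not tested as a source.

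The tetraspanins were the least restricted. CD9 organizes membrane domains and CD63 marks late endosomes and exosomes. Myeloid-like nuclei held 44.2% and 53.6% of Cd9 UMIs and 41.1% and 46.9% of Cd63 UMIs. Astrocyte-like nuclei held 21.6% and 22.6% of Cd9, and fibroblast-like nuclei held 38.3% and 36% of Cd63.

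The lipid genes fell between these extremes. Lpl, the lipase that frees fatty acids from lipoproteins, had 79.6% and 87.5% of its lesional UMIs in myeloid-like nuclei. For Apoe, the main apolipoprotein of brain, the shares were 78.2% and 76.2%, and for Fabp5, a cytosolic fatty acid carrier, 61.2% and 72.4%. Tyrobp had 75.1% and 78.6%. Apoc1, an apolipoprotein gene beside Apoe in the genome, had 69.5% of 141 UMIs and 92.2% of 307 UMIs there. A listed pseudogene copy, Fabp5l2, makes Fabp5 counts uncertain where reads are shared.

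Myeloid-like nuclei were divided again at a finer resolution into 11 states, also without these genes, and no state could be tested against the rest. Of 9 further genes of the disease-associated set that are not in the group (such as Cst7, Igf1 and Lgals3), 4 were raised in the state led by Hectd2os and Myo18b and 3 in the state led by Mamdc2 and Mfge8. The mean log2 ratio over the 9 genes, against the other myeloid-like nuclei, was -0.27 and 0.23 in these states. Neither state reached the share of raised genes or the mean of 0.5 needed for a name. States without a name are given by their leading genes. At this resolution the group did not follow 1 state but divided into the 3 patterns below.

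**Figure D2:**
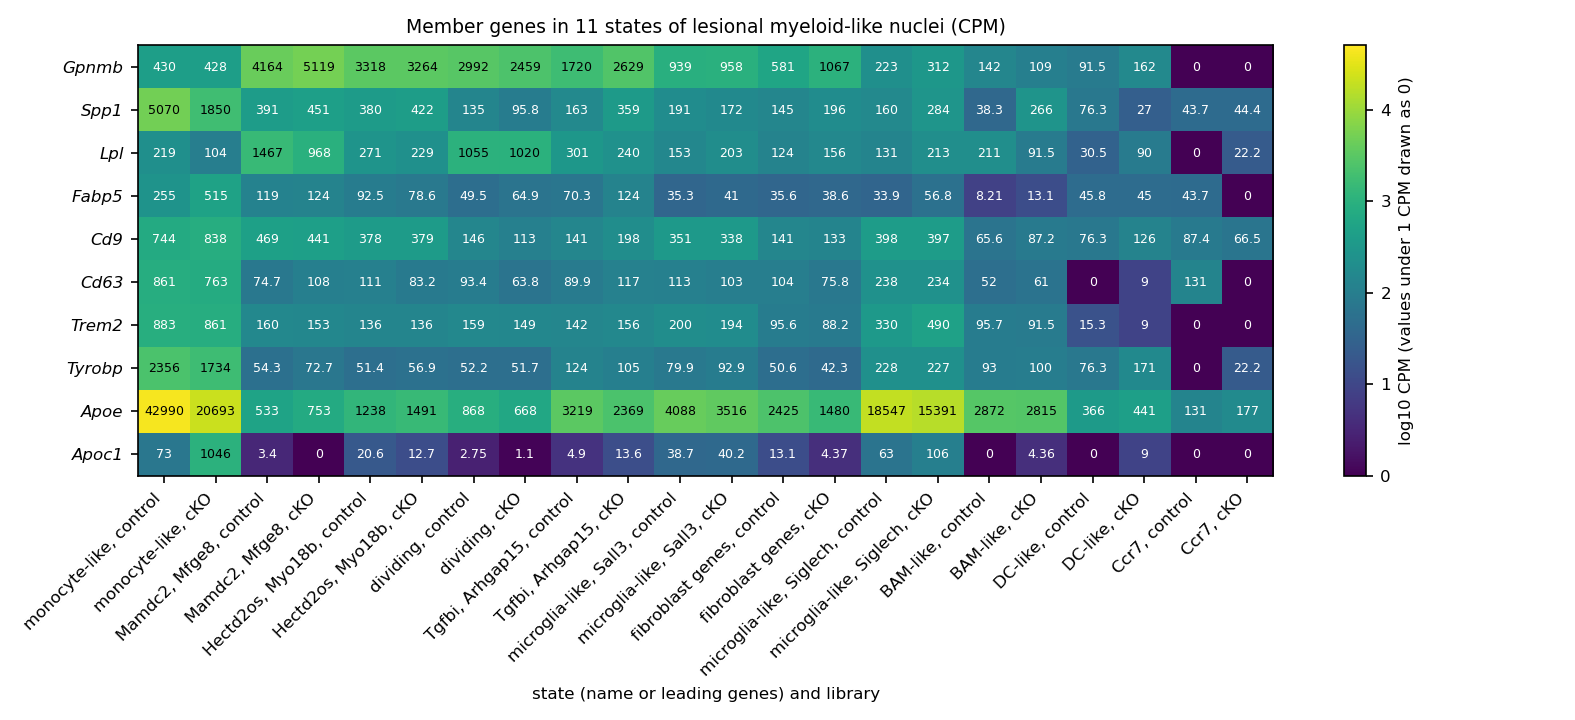
Each cell gives the CPM of 1 gene (rows) in lesional myeloid-like nuclei of 1 state and library (columns), coloured on a log10 scale with values under 1 CPM drawn as 0. Gpnmb peaks in the state led by Mamdc2 and Mfge8 (4164 and 5119 CPM), whereas 8 other genes are highest in the monocyte-like state in both libraries, where 1 nucleus holds 646 of 695 Spp1 UMIs under the control label.

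The first pattern was that of Gpnmb and Lpl. Over both libraries, lesional Gpnmb was 4825 CPM in the Mamdc2 and Mfge8 state (257 nuclei), 3281 CPM in the Hectd2os and Myo18b state, 2611 CPM in dividing nuclei and 2256 CPM in the state led by Tgfbi and Arhgap15. It was 949 CPM in the larger microglia-like state, 259 CPM in the Siglech microglia-like state, 129 CPM in border-associated-macrophage-like nuclei (BAM-like) and 136 CPM in dendritic-cell-like nuclei. Gpnmb was found in 0 of the 32 nuclei of the Ccr7 state, which allows up to 44.1 CPM. Lpl was highest in 2 of the Gpnmb-high states, at 1122 CPM in the Mamdc2 and Mfge8 state and 1030.2 CPM in dividing nuclei, but was only 242 CPM in the Hectd2os and Myo18b state. The other states had 14.7 to 265 CPM of Lpl.

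The second pattern was that of Apoe. Lesional Apoe was 17266 CPM in the Siglech microglia-like state and 30551 CPM in the monocyte-like state, against 685 CPM in the Mamdc2 and Mfge8 state and 725 CPM in dividing nuclei. The states with most Gpnmb were thus among those with least Apoe. Single nuclei showed the same opposition after thinning to 750 UMIs a nucleus: Apoe was found in 61.1% and 56.7% of nuclei with a Gpnmb UMI in the libraries labelled control and Cxcl12-cKO, and in 71.9% and 64.6% of nuclei without. Trem2 was also higher in the Siglech microglia-like state (395 CPM) than in the Mamdc2 and Mfge8 state (155 CPM).

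The third pattern was the monocyte-like state, 74 nuclei with 5 of 6 monocyte markers and a ribosomal share of 10.9% of their summed UMIs. The share was 0.321% to 1.11% in the other states. Lesional levels there were 2009 CPM for Tyrobp, 871 CPM for Trem2, 806 CPM for Cd63, 797 CPM for Cd9, 400 CPM for Fabp5, 616 CPM for Apoc1 and 3274 CPM for Spp1. For each of these genes this was the highest of the 11 states, whereas Gpnmb was 429 CPM. The libraries, with 27 and 43 lesional nuclei in this state, differed widely for 3 of the genes, at 5070.1 and 1850.1 CPM for Spp1, 73 and 1046 CPM for Apoc1, and 255 and 515 CPM for Fabp5. Of the Spp1 UMIs under the control label 1 nucleus held 646 of 695, and without it the level was 386 CPM, under the 391 CPM of the next state. Of the Apoc1 UMIs under the Cxcl12-cKO label 1 nucleus held 153 of 181, and without it the level was 179.8 CPM. Apoc1 under the control label (73 to 53.6 CPM) and Apoe under the Cxcl12-cKO label (20693 to 13243 CPM) likewise came second among the states without the nucleus with most of their UMIs. The ribosomal share was not alike over the nuclei of this state that held most UMIs. It was 8.32% and 20.4% in the nucleus of each library with most Trem2. In that with most Spp1 (646 and 154 UMIs) it was 1.92% and 2.03%. The part of ribosomal transcripts in the levels of this state was not tested.

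Spp1 sat in few nuclei. A Spp1 UMI was found in 372 of the 1808 nuclei of the lesional myeloid-like class (20.6%) under the control label and in 664 of 2313 (28.7%) under the Cxcl12-cKO label, and after thinning in 8.74% (7.48 to 10.1) and 13.7% (12.3 to 15.1). Excitatory-neuron-like nuclei had a Spp1 UMI in 8.38% and 9.4% before thinning, at 14387 and 13644 UMIs a nucleus, and in 1.45% and 0.671% after.

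**Figure D3:**
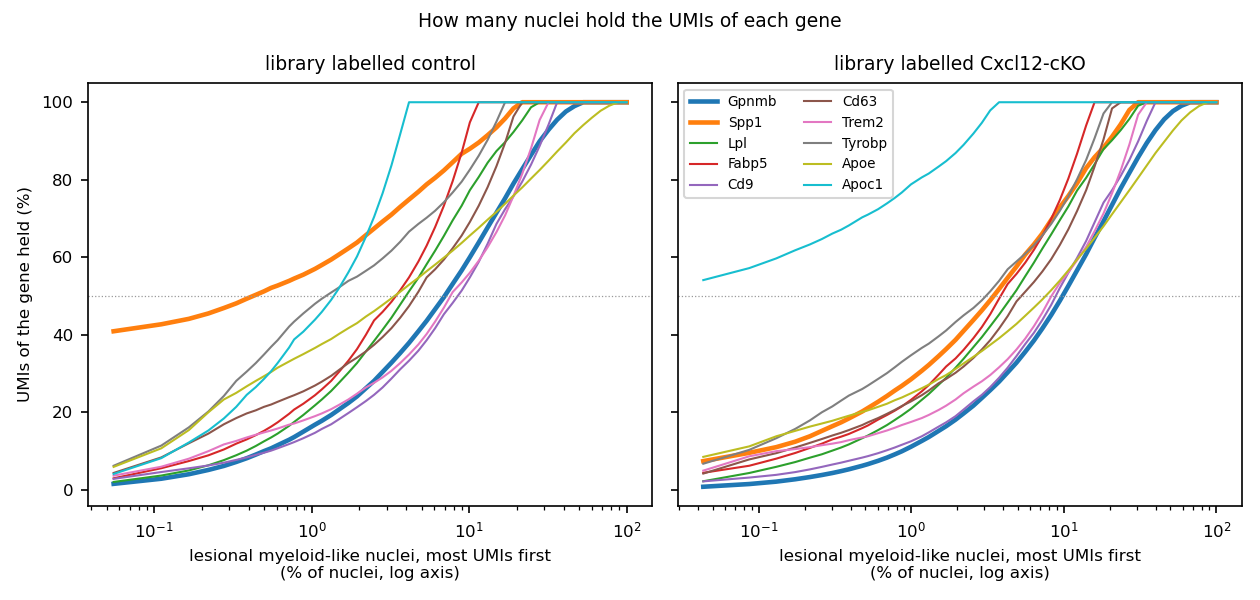
Lines give the cumulative percent of a gene's UMIs (y axis) held by lesional myeloid-like nuclei ranked from most to fewest UMIs of that gene (x axis, percent of nuclei, log scale), for each library. Spp1 begins at 40.9% in the library labelled control and Apoc1 at 54.1% in the library labelled Cxcl12-cKO, whereas Gpnmb rises slowly in both.

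In the library labelled control, 8 nuclei held 50% of the 1579 Spp1 UMIs. A single nucleus held 646 of them (40.9%). It had 10072 UMIs, carried transcripts of both sexes, lay in the monocyte-like state and also held 50 Gpnmb, 35 Cd9, 28 Tyrobp and 295 Apoe UMIs. In the library labelled Cxcl12-cKO, 80 nuclei held 50% of 2085 Spp1 UMIs, and the nucleus with most had 154 (7.39%). Over both libraries the top 1% of nuclei (41) held 41% of Spp1 UMIs, 40.6% of Tyrobp, 31.6% of Apoe, 69.8% of Apoc1 and 12.9% of Gpnmb UMIs. Under the Cxcl12-cKO label alone the top 1% held 28.5% of Spp1 and 34.7% of Tyrobp UMIs, so Spp1 was not the more concentrated there. The 41% fell to 24.6% without the monocyte-like state, to 23.5% in female mice and to 24.5% without the barcode filter. For Gpnmb 349 nuclei were needed for 50% of UMIs.

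At least 5 Spp1 UMIs were found in 66 lesional nuclei of the library labelled control and 136 of the library labelled Cxcl12-cKO, which held 1290 and 1520 UMIs. Of these nuclei 50 and 103 were myeloid-like, 8 and 24 fibroblast-like, and 3 and 4 osteoblast-like. The myeloid-like ones were spread over states. In the library labelled Cxcl12-cKO, 28 lay in the Hectd2os and Myo18b state, 19 in the Mamdc2 and Mfge8 state, 18 in the Tgfbi and Arhgap15 state and 11 in the monocyte-like state.

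The barcode filter also bore on Spp1. It removed 21.3% of the lesional Spp1 UMIs of the library labelled Cxcl12-cKO and 3.3% of those of the library labelled control. A single removed barcode of the library labelled Cxcl12-cKO, with 114309 UMIs and a ribosomal share of 12.2%, held 781 Spp1, 175 Fabp5, 136 Tyrobp and 1930 Apoe UMIs.

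Apoc1 was sparser still. It was found in 74 (4.09%) and 82 (3.55%) lesional myeloid-like nuclei. Under the Cxcl12-cKO label 1 nucleus held 153 of the 283 UMIs (54.1%). This female nucleus of the monocyte-like state had 17260 UMIs, a ribosomal share of 20.4%, 1517 Apoe UMIs and the most Trem2 (56), Tyrobp (54), Cd9 (40), Cd63 (31) and Fabp5 (24) UMIs of any lesional myeloid-like nucleus of its library.

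The genes were found together in a minority of nuclei. After thinning to 750 UMIs, 408 of the 1808 lesional myeloid-like nuclei of the library labelled control (22.6%) and 633 of 2313 of the library labelled Cxcl12-cKO (27.4%) had UMIs of 3 or more of the 10 genes. Gpnmb was found in 58.9% and 64.2% of nuclei with a Spp1 UMI and in 34.4% and 46.7% of nuclei without. Cd9 was found in 30.4% and 22.5% of nuclei with a Spp1 UMI and in 15.1% and 15.2% of those without. These shares are over nuclei of 1 library each and share its depth and free RNA.

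The comparison of the libraries asks how these genes differed where Cxcl12 was targeted in fibroblasts. Among genes with at least 50 UMIs in lesional myeloid-like nuclei, 2.75% of 12282 were at least 1.5-fold higher in the library labelled Cxcl12-cKO and 3.64% at least 1.5-fold lower. Of the 10 genes, 1 was that much higher (Apoc1) and 1 that much lower (Apoe). The median log2 ratio was -0.01 over the 10 and -0.02 over all genes, and the 10 genes went both ways.

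**Figure D4:**
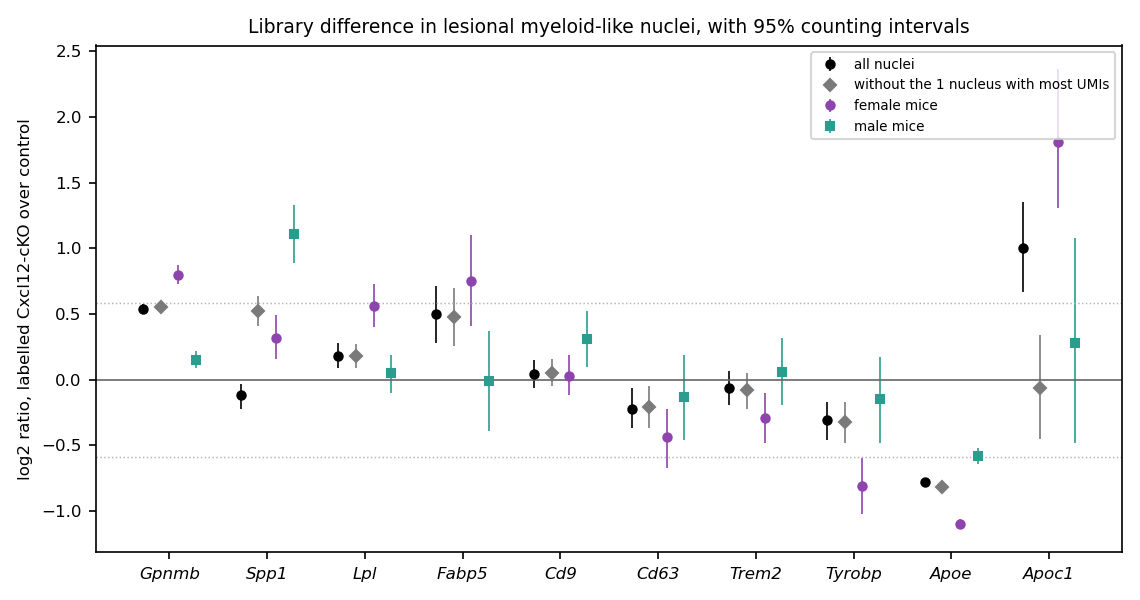
Points give the log2 ratio of CPM, with Cxcl12-cKO over control as labelled, in lesional myeloid-like nuclei, with 95% counting intervals, for all nuclei, without the nucleus with most UMIs of the gene in each library, and in nuclei of female or male mice. Dotted lines mark 1.5-fold; Spp1 and Apoc1 change sides without 1 nucleus, and Apoe is below 0 in every set.

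Apoe was lower in the library labelled Cxcl12-cKO, at 2582 CPM (2544 to 2620) against 4426 CPM (4366 to 4485), a log2 ratio of -0.78 (-0.81 to -0.75). It no longer reached 1.5-fold with nuclei weighted alike (-0.56), without the top 1% of nuclei (-0.55), in male mice (-0.58) or with the mix of the 11 states held alike (-0.46), and it was -0.82 without the single nucleus with most Apoe in each library. Within states Apoe was not uniformly lower. It was -1.05 in the monocyte-like state, -0.44 in the Tgfbi and Arhgap15 state, -0.22 and -0.27 in the larger and the Siglech microglia-like states, but 0.27 in the Hectd2os and Myo18b state and 0.49 in the Mamdc2 and Mfge8 state.

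Gpnmb was higher, at 2082 CPM (2048 to 2116) against 1430.3 CPM (1397 to 1465), a log2 ratio of 0.54 (0.50 to 0.58) that lies under the 1.5-fold line. A Gpnmb UMI was found in 50.4% (48.1 to 52.7) and 64.8% (62.8 to 66.7) of nuclei, and after thinning in 36.5% and 49.1%. With the mix of states held alike the log2 ratio was 0.19. Of the Gpnmb-high states, the Mamdc2 and Mfge8 state made up 4.65% and 7.48% of lesional myeloid-like nuclei, the Hectd2os and Myo18b state 9.24% and 15%, and dividing nuclei 6.97% and 11.2%. By mouse, dividing nuclei made up 1.57% and 10.3% in females but 13.1% and 14.2% in males, the Hectd2os and Myo18b state 7.13% and 16.4% in females but 12.4% and 14.6% in males, and the Mamdc2 and Mfge8 state 4.56% and 6.69% in females and 6.67% and 10.8% in males. Within states the log2 ratio was 0.61 in the Tgfbi and Arhgap15 state, 0.30 in the Mamdc2 and Mfge8 state, -0.02 in the Hectd2os and Myo18b state, 0.03 in the larger microglia-like state and -0.28 in dividing nuclei. The largest was 0.88, in a state with fibroblast genes in which 31.5% of nuclei held transcripts of both sexes, and the part of doublets in it was not tested.

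The direction of Spp1 rested on 1 nucleus. Its log2 ratio was -0.12 (-0.22 to -0.03) with all nuclei and 0.52 (0.41 to 0.64) without the 1 nucleus with most UMIs in each library, when its level was 194 and 279 CPM. In the Tgfbi and Arhgap15 state, Spp1 was at 163 and 359 CPM, a log2 ratio of 1.13 (0.81 to 1.47), and in female and male nuclei of that state 1.30 and 1.32. In the monocyte-like state it was -1.45, and 646 of the 695 UMIs of the library labelled control there came from 1 nucleus. In BAM-like nuclei it was 2.76, where 45 of 61 UMIs of the library labelled Cxcl12-cKO lay in 1 nucleus.

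Apoc1 depended on 1 nucleus as well. It was at 20.4 CPM (16.5 to 24.8) and 40.9 CPM (36.3 to 46), a log2 ratio of 1.00 (0.67 to 1.35), and at 19.6 and 18.8 CPM, a ratio of -0.06 (-0.45 to 0.34), without the nucleus with most UMIs in each library.

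The remaining genes stayed under 1.5-fold. Fabp5 was at 56.1 and 79.2 CPM, a log2 ratio of 0.50 (0.28 to 0.71), and Lpl at 329 and 374 CPM, a ratio of 0.18 (0.09 to 0.28). Cd9 was at 259 and 267 CPM (0.04, -0.06 to 0.15) and Trem2 at 171 and 164 CPM (-0.06, -0.19 to 0.07), and neither interval excludes 0. Cd63 was at 125 and 107 CPM (-0.22, -0.37 to -0.06), and Tyrobp at 144 and 116 CPM (-0.31, -0.46 to -0.17).

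Each library pooled 2 mice, so the 4 mice were set side by side after assigning nuclei by Xist or Y-linked UMIs. Lesional myeloid-like nuclei assigned to the female mouse numbered 701 and 1136 in the libraries labelled control and Cxcl12-cKO, and those of the male mouse 540 and 536.

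**Figure D5:**
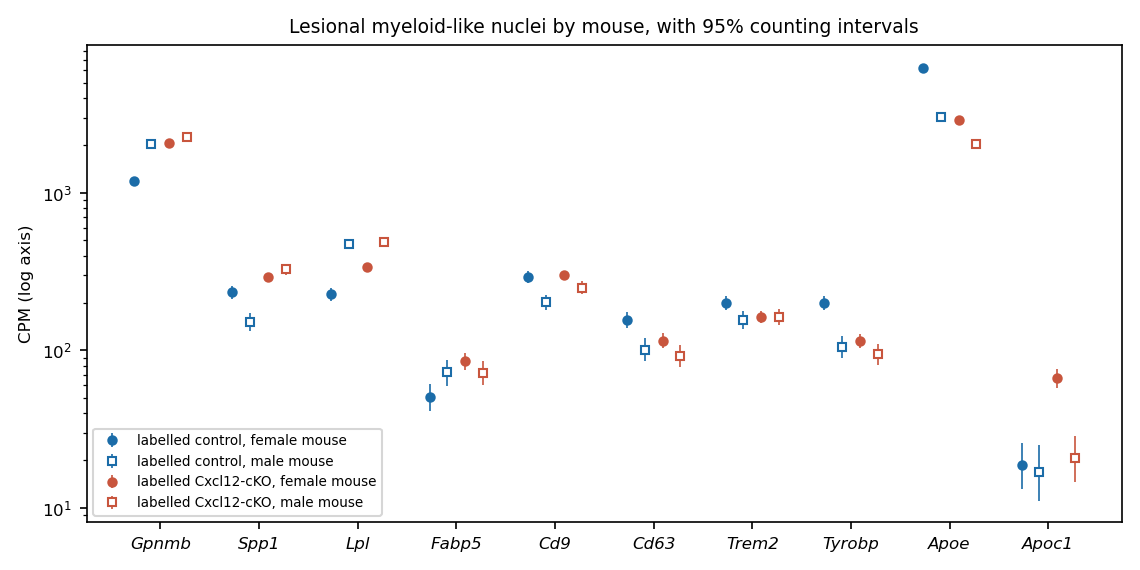
Points give CPM (log axis) in lesional myeloid-like nuclei of each of the 4 mice, with 95% counting intervals. For Gpnmb and Lpl the female mouse labelled control stands below the other 3, and for Apoe it stands above them.

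Gpnmb was at 1191 CPM in the female and 2041 CPM in the male mouse labelled control, and at 2075 and 2272 CPM in the female and male mice labelled Cxcl12-cKO. Of the 4 mice, 3 lay between 2041 and 2272 CPM and the female mouse labelled control lay below them, so the log2 ratio was 0.80 in females and 0.15 in males. Between the mice of the library labelled control the difference in Gpnmb, female over male, was -0.78 on the log2 scale, larger in size than the difference between libraries.

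Apoe was at 6167 and 3035 CPM in the female and male mice labelled control and at 2882 and 2029 CPM in those labelled Cxcl12-cKO. Both mice labelled Cxcl12-cKO were below both labelled control, with log2 ratios of -1.10 in females and -0.58 in males. The female mouse labelled control exceeded its male partner by 1.02 on the log2 scale.

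Spp1 was at 234 and 152 CPM in the female and male mice labelled control and at 293 and 328 CPM in those labelled Cxcl12-cKO. The nucleus with 646 Spp1 UMIs carried transcripts of both sexes and enters neither value. Both mice labelled Cxcl12-cKO were above both labelled control, by log2 ratios of 0.32 in females and 1.11 in males. Of the other genes, Fabp5 was 0.75 in females and -0.01 in males, Lpl 0.56 and 0.05, Apoc1 1.81 and 0.28, Tyrobp -0.81 and -0.15, Cd63 -0.44 and -0.13, Trem2 -0.29 and 0.06, and Cd9 0.03 and 0.31. Tyrobp and Cd63 were below 0 in both sexes, but their intervals in males (-0.48 to 0.17 and -0.46 to 0.19) include 0. Trem2 and Fabp5 changed sign between the sexes, but their intervals in males (-0.19 to 0.32 and -0.39 to 0.37) include 0 as well. Mouse, sex and litter cannot be told apart with 1 mouse of each sex in a library.

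Other lesional classes had lower CPM of these genes, except for Spp1 in osteoblast-like nuclei under the Cxcl12-cKO label (376 against 301 CPM). By share of nuclei the order could differ. A Cd9 UMI was found in 49.3% and 50.1% of astrocyte-like nuclei, against 35.8% and 38.8% of myeloid-like nuclei. For Cd63 these shares were 20% and 20.7% against 20.4% and 21.2%. In lesional fibroblast-like nuclei 3.36% of 14473 genes were at least 1.5-fold higher in the library labelled Cxcl12-cKO and 2.81% at least 1.5-fold lower. Of the 9 genes of the group with enough UMIs, 2 were that much higher (Gpnmb at 14.9 and 28.7 CPM, and Fabp5 at 4.24 and 7.32 CPM) and 0 lower. Spp1 was 1.47-fold higher there, with a log2 ratio of 0.56 (0.40 to 0.72). The myeloid genes Trem2 and Tyrobp, which fibroblasts should lack, were at 4.1 and 5.46 CPM and at 10.4 and 7.52 CPM in these nuclei. Under the control label 2 nuclei held 69 of the 152 Tyrobp UMIs, and under the Cxcl12-cKO label 1 nucleus held 14 of 113. Of all lesional nuclei, 22.3% and 29.2% were myeloid-like under the control and Cxcl12-cKO labels, and free RNA from them was not tested as a source. Gpnmb in fibroblast-like nuclei was close to the 13.6 CPM of excitatory-neuron-like nuclei under the control label, and above their 15.9 CPM under the Cxcl12-cKO label. The order differed by share of nuclei, with a Gpnmb UMI in 4.29% and 9.17% of fibroblast-like and 6.07% and 10.7% of excitatory-neuron-like nuclei. The neuron-like levels rested on few nuclei, since 2 nuclei of each library held 52 of 73 and 16 of 33 Gpnmb UMIs. Among fibroblast-like nuclei, 1 of each library held 5 or more Gpnmb UMIs, with 5 of 218 and 5 of 431. Median depths were 3059 and 3110 against 14387 and 13644 UMIs a nucleus, so CPM and shares do not compare alike.

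In lesional astrocyte-like nuclei the backgrounds were 3.75% of 10363 genes higher and 4.17% lower. Of the 9 genes tested there, Tyrobp was at least 1.5-fold higher (8.16 and 16.1 CPM, 22 and 50 UMIs) and Lpl at least 1.5-fold lower (42.3 and 20 CPM). Neither call held in females or in males. The ratio of Tyrobp was 1.17-fold in females and 1.09-fold in males, and 2 nuclei held 22% of its 50 UMIs. Lpl was at 14.6 and 23.7 CPM in females (0.68 on the log2 scale) and at 13.3 and 11 CPM in males (-0.27), and 3 nuclei held at least 50% of its 114 UMIs under the control label. Gpnmb was at 181 and 124 CPM, a log2 ratio of -0.55 (-0.74 to -0.35), with most UMIs in few nuclei as above. It was at 97.2 and 131 CPM in females (0.43) and at 113 and 67.2 CPM in males (-0.74). Nuclei assigned to a sex held 113 and 172 UMIs in females and 85 and 61 in males, of 489 and 386 in all. In fibroblast-like and astrocyte-like nuclei Cd9 (0.841-fold and 1.11-fold) and Cd63 (0.994-fold and 0.975-fold) stayed within 1.5-fold.

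Myeloid-like nuclei of the parenchyma were few, 30 and 45, and most lay in the Siglech microglia-like state. Gpnmb was the gene that separated the regions most. It was at 86.8 CPM (5 UMIs) and 132 CPM (12 UMIs) in the parenchyma, and its log2 ratio of lesion over parenchyma was 3.90 (2.82 to 5.67) and 3.92 (3.17 to 4.93) in the libraries labelled control and Cxcl12-cKO. Lpl had ratios of 1.78 (0.70 to 3.55) and 2.39 (1.38 to 3.95), also with lesion higher in both. Spp1 had 2.92 and 0.65 on 2 and 17 parenchymal UMIs.

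Trem2, the adaptor gene Tyrobp and Apoe went the other way. Trem2 was at 573 and 374 CPM in the parenchyma and 171 and 164 CPM in the lesion, a log2 ratio of -1.77 and -1.21. These pooled levels do not hold the mix of states alike, since 25 of 30 and 34 of 45 parenchymal nuclei lay in the Siglech microglia-like state. Outside the monocyte-like state, the lesional state with most Trem2 had 329.7 and 489.6 CPM. The part of the mix of states in the Trem2 ratios was not tested. Tyrobp had ratios of -1.56 and -2.72. Under the control label 13 of its 24 parenchymal UMIs came from 1 monocyte-like nucleus. Under the Cxcl12-cKO label 52 of its 69 parenchymal UMIs came from 2 monocyte-like nuclei. Apoe was at 17437 and 5452 CPM in the parenchyma, and its ratios were -1.98 and -1.08. Within the Siglech microglia-like state alone, Apoe was at 16405 and 5312 CPM in the parenchyma and 18547 and 15391 CPM in the lesion, and Gpnmb at 95.8 and 0 CPM against 223 and 312 CPM. The count of 0 rests on 34 nuclei and allows up to 46.7 CPM. The order of the regions for Apoe over all myeloid-like nuclei was therefore not that within this state.

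Further genes of the pathways around the group, 69 in 7 lists, were compared in lesional myeloid-like nuclei, and 67 had at least 50 UMIs. Of these, 4 were at least 1.5-fold higher in the library labelled Cxcl12-cKO and 3 lower, beside the 2.75% and 3.64% of all genes. The median log2 ratio over the 67 was 0.12.

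In TREM2 and TYROBP signalling, 0 of 8 genes were higher and 1 lower: Hcst, the DAP10 adaptor, at 9.35 and 5.35 CPM (45 and 37 UMIs). The members with most UMIs were Inpp5d, the SHIP1 phosphatase, at 1157 and 1037 CPM (-0.16 on the log2 scale), and Vav3, a guanine exchange factor, at 416 and 517 CPM (0.31). In lipid uptake 0 of 8 were higher. The scavenger receptors Lrp1 (694 and 823 CPM) and Cd36 (189 and 235 CPM) were under 1.5-fold.

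Among 8 genes of cholesterol efflux and LXR, the oxysterol receptor pathway, 2 were past 1.5-fold. Nr1h3, which encodes LXRα, was at 13.7 and 21.1 CPM and Apoc2, an LPL cofactor, at 9.56 and 15.8 CPM. By mouse, the log2 ratio of Nr1h3 was 1.40 in females and 0.17 in males, and that of Apoc2 was -0.15 and -1.06, below 0 in both. The cholesterol exporters Abca1 (2429.6 and 2700.1 CPM) and Abcg1 (333 and 439 CPM) were under 1.5-fold.

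Of 10 lipid storage genes 2 were higher past 1.5-fold. Fabp4, a fatty acid carrier of macrophages and fat, was at 30.6 and 53.6 CPM, and its log2 ratio was 1.62 in females and 0.22 in males. Fabp3 was at 3.53 and 5.78 CPM on 17 and 40 UMIs, and its interval (-0.14 to 1.62) includes 0. Soat1, which makes cholesterol esters, was at 351 and 393 CPM and Plin2, a lipid droplet coat protein, at 207 and 254 CPM. By mouse, Plin2 was 0.63 in females and 0.13 in males, in the same order as Lpl.

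Lysosomal genes and those of the MiT/TFE transcription factors, which drive lysosome genes, were past 1.5-fold in neither direction (0 of 13). Mitf was at 1545 and 1682 CPM and the protease gene Ctsb at 941 and 975 CPM. Of 11 other disease-associated genes 0 were higher and 1 was lower: Ccl6, a chemokine, at 31.4 and 11.1 CPM, a log2 ratio of -1.49 that was -2.02 in females and -1.33 in males. Igf1, a growth factor, was at 851 and 936 CPM and Lgals3, which encodes galectin-3, at 511 and 697 CPM. The log2 ratio of Lgals3 was 0.80 in females and 0.11 in males. Receptors of osteopontin and GPNMB were past 1.5-fold in 0 of 9, with the integrin genes Itgb5 at 560 and 482 CPM and Itgav at 311 and 362 CPM.

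The gene most like each of the 10 was sought by Pearson correlation of log2(CPM + 1) over 30 groups of class, region and library, among 13832 genes. The groups share libraries, depth and free RNA, so the values only describe. Gpnmb was most like C1qb (r = 0.93), a complement gene of phagocytes, Trem2 most like Ly86 (0.92), Tyrobp most like Mpeg1 (0.90) and Lpl most like Ifi204 (0.90), which are genes of myeloid cells. Apoe was most like Ftl1 (0.93), an iron storage gene. Spp1 was most like Anxa1 (0.93), Cd9 most like Prdx1 (0.94) and Cd63 most like Pmp22 (0.93). Fabp5 and Apoc1 were most like AU022793 (0.86) and Gm35154 (0.88).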

How the data were processed

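The authors ran Cell Ranger 9.0.0 on GRCm39, per the labels' processing notes, and deposited filtered matrices of whole-number UMI counts without normalization, 1 for each region of each library (1 library of a genotype). Whether intronic reads were counted is not stated in any source at hand. Barcodes in the outer 2.5% by UMIs or genes, or the top 2.5% by mitochondrial share, were removed, which left 21743 of 23489. Nuclei were clustered in scanpy 1.11.5 (3000 variable genes, 30 components, 20 neighbours, Leiden resolution 0.25, and 0.8 for the 11 states, chosen after seeing the data) without the 10 genes, and named from marker lists. At least 3 markers had to be up, and the mean log2 ratio over the list had to reach 0.5. A share of 50% of the list was set after the clusters were seen. Scrublet called 57 and 20 doublets, too few to have worked, so no doublets were removed in the main analysis.

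UMIs were summed by class, state and mouse as CPM, and log2 ratios had 0.5 added to each sum. The ratio script recovered known folds in simulated counts. Members, gene lists and tests were chosen with earlier results of these data known. Named genes were the 10 members, the 2 genes with most UMIs and those past 1.5-fold in each list, and the most correlated gene, with 1 gene of the lists not reported here. Alternatives are given below. Besides scanpy, scikit-learn 1.9.0, pandas 2.3.3, numpy 2.4.6 and scipy 1.17.1 were run under Python 3.11.15.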

Additional observations from a re-analysis of the deposited data

Results flagged for a closer look

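Gpnmb in lesional astrocyte-like nuclei differed in direction between the mice of each sex. The log2 ratio, Cxcl12-cKO over control as labelled, was 0.43 in female mice, at 97.2 and 131 CPM, and -0.74 in male mice, at 113 and 67.2 CPM. These values rest on 113 and 172 UMIs in females and 85 and 61 in males, of 489 and 386 in all. The other UMIs lay in nuclei with transcripts of both sexes or of neither. Few nuclei held most UMIs, with 70.6% in 25 of 615 nuclei and 57% in 17 of 643. It was set apart because the 2 pairs of mice went opposite ways. The difference was not tested.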

How the results depend on the processing

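No paired analysis was possible because each group had 1 library, and the sex-matched mice of the libraries, 1 of each sex, gave values without a test. Gpnmb was above 0 under all alternatives run (log2 ratio 0.15 to 0.80) and Apoe below 0 (-1.10 to -0.46). Spp1, -0.12 as reported, was 0.56 without the barcode filter, 0.52 with nuclei weighted alike, 0.70 without nuclei holding transcripts of both sexes, 0.32 and 1.11 in female and male mice, 0.59 without the top 1% of nuclei, 0.47 without the monocyte-like state and 0.52 without 1 nucleus in each library. Apoc1 was -0.03, -0.43, -0.32 and -0.06 without the filter, the top 1%, the monocyte-like state and 1 nucleus. Cd63 was 0.05 with nuclei weighted alike, Fabp5 -0.01 in males and Lpl -0.18 with states held alike. The 1 gene at least 1.5-fold higher became 0 without the filter, the monocyte-like state or 1 nucleus, 2 without both-sex nuclei or the top 1%, and 3 in females. The 1 gene at least 1.5-fold lower became 0 with nuclei weighted alike, in males, without the top 1% or with states held alike, and 2 in females. The median log2 ratio, -0.01, was 0.16 without both-sex nuclei and 0.18 in females. The median myeloid-like share, 77.1%, was 42.8% without the filter, where 1 cluster with 8 of 10 myeloid markers took another name, 83% and 71.7% in females and males, and 69.1% without the monocyte-like state. The share of Spp1 in the top 1% of nuclei, 41%, was 24.5% without the filter, 42.8% without the highest Scrublet scores, 29% without both-sex nuclei, 23.5% and 34.7% in females and males, 43% without the state with fibroblast genes and 24.6% without the monocyte-like state. The alternatives without either state, without barcodes shared between libraries, without 1 nucleus and with states held alike were chosen after seeing the data. Beyond these values the cause of a change was not tested. Apoc1 had few UMIs (98 and 283), and the parenchyma few myeloid-like nuclei (30 and 45).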
